A study of Mus musculus with 17 samples.

Results

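The Zfp genes examined here were the 203 protein-coding genes on chr7, chr8, chr10, chr13 and chr17 whose symbol is Zfp followed by a number, with or without a letter. They were taken from GENCODE M21 on mm10 by name and position, under a rule set with earlier results of these data known. They made up 203 of the 5978 protein-coding genes of these 5 chromosomes and of the 20807 autosomal ones. The question was whether H3.3, a histone variant laid down outside replication, had a called peak at their transcript starts or inside the genes, and how this varied between chromosomes and between gene clusters. H3.3 was mapped by CUT&RUN, in which an antibody guides a nuclease to its target in permeabilised cells and the released DNA is sequenced. Of the 17 libraries of the series, 5 were made with a mouse monoclonal antibody against H3.3, 2 from Arid1a WT and 3 from Arid1a cKO spermatocytes, and the 12 ARID1A libraries were not analysed here.

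The Arid1a cKO males were Arid1a fl/fl; Stra8-Cre Tg/0, and lost ARID1A, a putative DNA-binding subunit of the BAF-A remodeler, through a Cre driven by the Stra8 promoter from spermatogonia onward. The Arid1a WT males were Arid1a fl/fl or Arid1a fl/+ with no Cre, so floxed alleles were present in both groups. The floxed line is on a CD1 background, whereas mm10 is a C57BL/6J genome. Cells were sedimented by Sta-Put from the combined testes of adult males, and the fractions kept were mostly but not wholly pachytene. Stra8-Cre excision is incomplete, so the cKO fraction can hold cells that still carry ARID1A. A peak list contains no expression values, and the cell type could not be checked against markers.

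Each genotype was represented by 1 list, made by intersecting the peaks of its libraries, so no spread between libraries could be computed and the genotypes were not tested against each other. Shares are given with 95% Wilson intervals. These reflect counting error alone and count each gene as independent, although the genes of a cluster arose by duplication. The Arid1a cKO list held 12183 rows in 6552 merged regions, 6179 of them autosomal. In each of these 6179 the rows carried 1 peak name and 1 fold, so the fold and q values may describe a single library, which is not named. The Arid1a WT list held 228 rows, of which 4 were autosomal. The weakest row had a fold enrichment over IgG of 2.80 in the cKO list and 4.85 in the WT list. The depth of the libraries is unknown, and whether the libraries of a genotype came from separate cell preparations is not stated.

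Most Zfp genes encode proteins with tandem C2H2 zinc fingers, and many of these also carry a KRAB domain. KRAB zinc finger proteins bind retroelements and other repeats through their fingers and recruit TRIM28, which brings the H3K9 methyltransferase SETDB1 and heterochromatin proteins. Their genes multiplied by tandem duplication and sit in dense clusters, many of which are themselves packaged with H3K9me3 in other cell types. H3.3 is placed at active promoters by the HIRA complex and in heterochromatin by ATRX and DAXX, and in other cell types the ATRX-bound form lies over the 3' exons of KRAB zinc finger genes. Both the starts and the last exons were therefore scored.

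A total of 59 of the 203 Zfp genes had a cKO region within 1 kb of a transcript start, a share of 29.1% (95% Wilson interval 23.3 to 35.7%). The same rule called 28.5% of all coding genes of these chromosomes and 29.5% of all autosomal coding genes, so the family as a whole stood at the background. With rows of a -log10 q of at least 3, 48 members (23.6%, 18.3 to 29.9%) were called against a background of 20.1%. With at least 5, 30 members (14.8%, 10.6 to 20.3%) were called against 9.20%, so the interval then lay above the background. That interval counts each gene as independent. The 30 include Zfp668 and Zfp646, which share 1 region, and the near copies Zfp119a, Zfp959 and Zfp119b. No member had a WT row at a start (0 of 203), and the WT background was 0%. The WT list had no row on the 5 chromosomes, so this outcome was fixed in advance and sets no limit on WT H3.3 at these starts. Of the 59 members, 28 had a fold at or above the weakest WT row and 31 lay below it. Beneath the family average, the members differed widely by cluster, by chromosome and by whether they encode a KRAB domain, as the plot of members in chromosomal order shows.

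**Figure D1:**
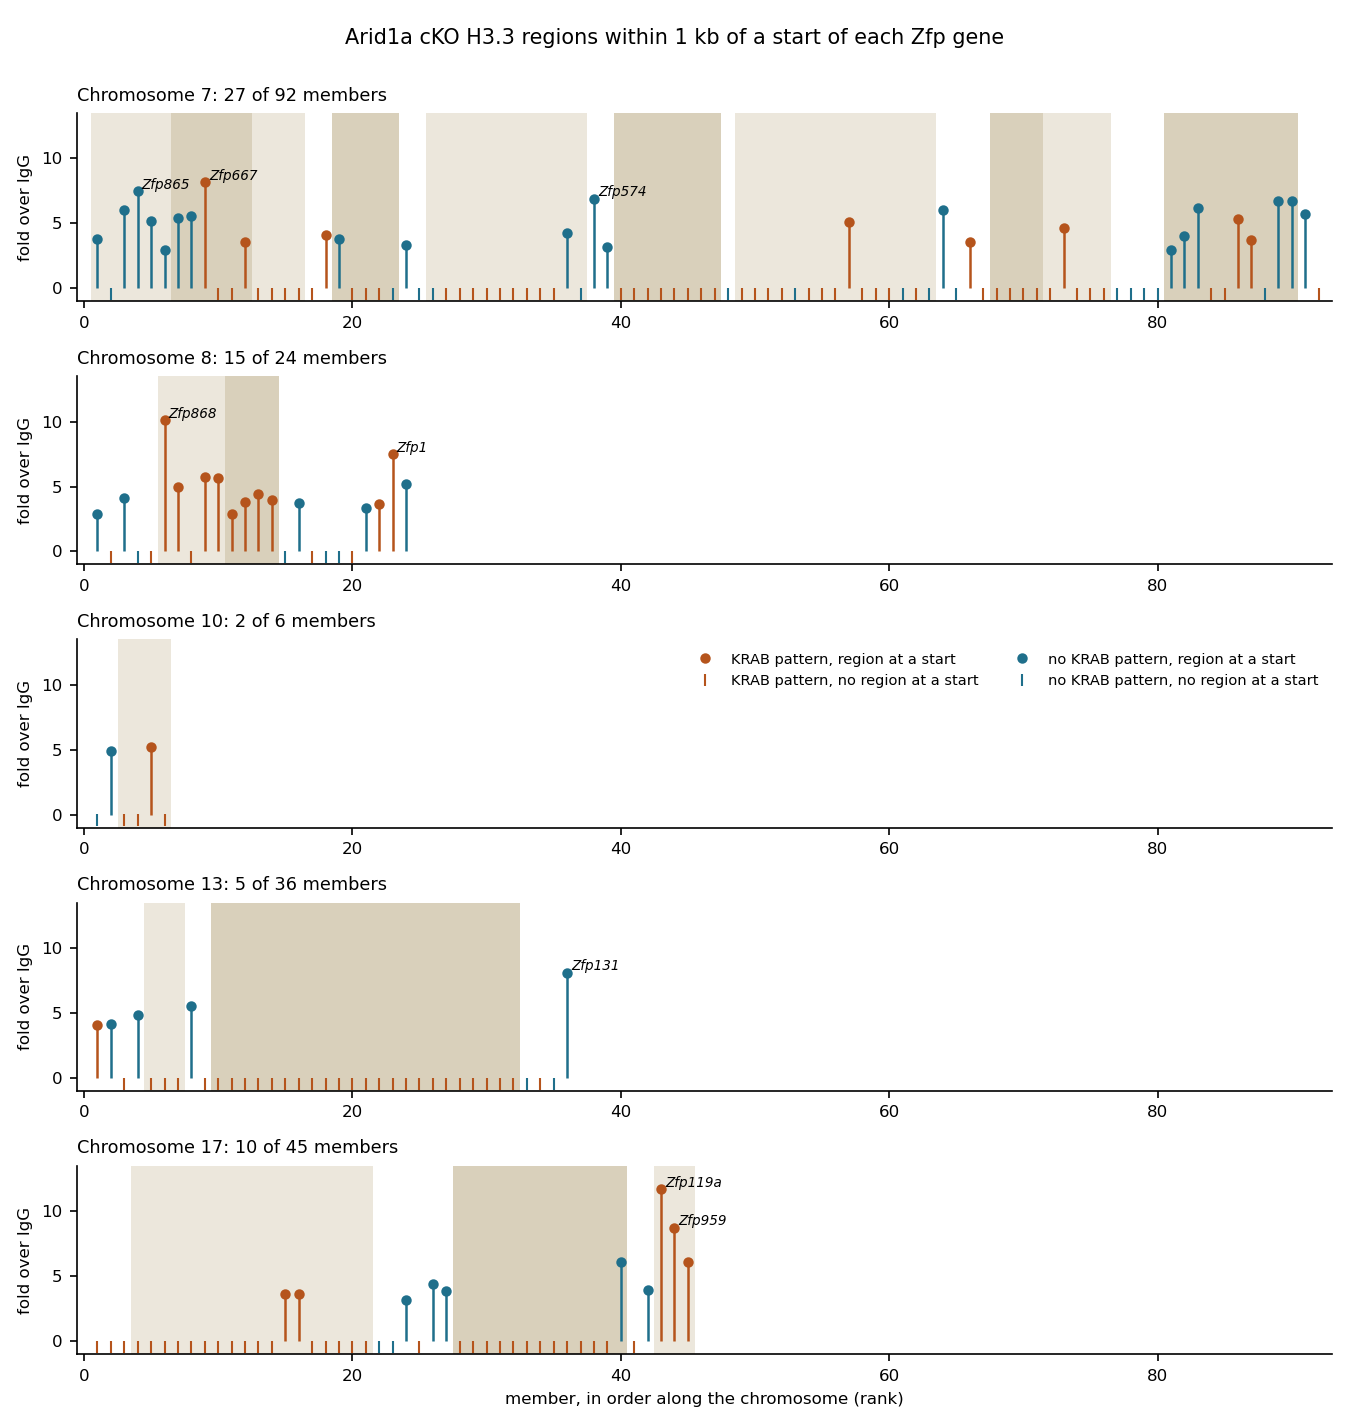
Each Zfp gene in its order along chr7, chr8, chr10, chr13 and chr17 (x axis, rank), with the fold enrichment over IgG of the cKO H3.3 region at its start (y axis, linear). Dots on stems are the 59 members with a region, ticks below 0 the 144 without, shading marks clusters in alternating tones, and colour marks the KRAB pattern. The 23 genes of the chr13 cluster from Zfp712 to Zfp273 form an unbroken row of ticks, while the last 3 genes of chr17 all carry a region.

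Promoters of a trio on chr17 and of the long cluster on chr13 are shown because every gene of the first and none of the second had a region. A chr8 cluster also had a region at every gene, 4 of 4, with lower folds. The sequences run 5′ to 3′ from 250 bases before to 50 bases after a RefSeq transcript start (GRCm38.p6), and capitals mark CG dinucleotides. The trio lies on chr17 between 55.86 and 55.95 Mb. For Zfp119b the RefSeq start at its region was used, since the outermost start, used in the counts below, lay elsewhere.
Zfp119a (chr17:55878904-55879203, minus strand): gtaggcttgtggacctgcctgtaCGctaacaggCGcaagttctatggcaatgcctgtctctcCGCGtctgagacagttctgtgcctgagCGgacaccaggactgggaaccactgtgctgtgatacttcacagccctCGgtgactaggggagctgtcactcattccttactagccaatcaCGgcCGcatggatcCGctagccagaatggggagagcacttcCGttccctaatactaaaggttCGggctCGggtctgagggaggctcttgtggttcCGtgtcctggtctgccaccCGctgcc
Zfp959 (chr17:55891843-55892142, plus strand): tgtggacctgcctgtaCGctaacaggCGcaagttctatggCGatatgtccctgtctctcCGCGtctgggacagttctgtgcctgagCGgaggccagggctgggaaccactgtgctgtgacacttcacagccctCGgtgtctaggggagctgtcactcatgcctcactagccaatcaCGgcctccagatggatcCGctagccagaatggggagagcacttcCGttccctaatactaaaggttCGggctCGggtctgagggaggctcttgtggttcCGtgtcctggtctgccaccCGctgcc
Zfp119b (chr17:55945210-55945509, minus strand): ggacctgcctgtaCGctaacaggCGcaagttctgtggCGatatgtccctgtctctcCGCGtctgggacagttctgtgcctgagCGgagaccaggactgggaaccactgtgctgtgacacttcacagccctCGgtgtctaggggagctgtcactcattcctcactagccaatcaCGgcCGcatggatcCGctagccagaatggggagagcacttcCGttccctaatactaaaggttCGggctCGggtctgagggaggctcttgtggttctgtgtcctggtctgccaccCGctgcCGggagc
Zfp868 on chr8 and Zfp131 on chr13 carried 2 of the other strong regions, the first with few CG dinucleotides and the second with many.
Zfp868 (chr8:69625499-69625798, minus strand): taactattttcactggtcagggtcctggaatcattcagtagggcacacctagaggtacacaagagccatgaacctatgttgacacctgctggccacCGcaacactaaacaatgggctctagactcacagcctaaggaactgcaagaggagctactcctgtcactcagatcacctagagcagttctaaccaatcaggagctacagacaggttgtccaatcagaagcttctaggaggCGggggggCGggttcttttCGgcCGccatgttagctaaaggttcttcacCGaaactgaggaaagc
Zfp131 (chr13:119790683-119790982, minus strand): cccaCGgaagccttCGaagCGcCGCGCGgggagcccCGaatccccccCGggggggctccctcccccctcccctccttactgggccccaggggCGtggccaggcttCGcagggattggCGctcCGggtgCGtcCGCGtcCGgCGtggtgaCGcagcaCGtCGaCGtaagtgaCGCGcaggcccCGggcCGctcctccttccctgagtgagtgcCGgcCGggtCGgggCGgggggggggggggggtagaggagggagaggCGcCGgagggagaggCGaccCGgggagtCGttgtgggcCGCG
The first 3 genes of the chr13 cluster had no region.
Zfp712 (chr13:67061121-67061420, minus strand): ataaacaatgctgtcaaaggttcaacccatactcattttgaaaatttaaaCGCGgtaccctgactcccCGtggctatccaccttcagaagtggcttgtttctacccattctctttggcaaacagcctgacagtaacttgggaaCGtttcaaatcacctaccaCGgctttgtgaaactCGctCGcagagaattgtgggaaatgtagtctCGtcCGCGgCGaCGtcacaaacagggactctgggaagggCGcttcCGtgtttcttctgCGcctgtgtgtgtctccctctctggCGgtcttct
Zfp708 (chr13:67097927-67098226, minus strand): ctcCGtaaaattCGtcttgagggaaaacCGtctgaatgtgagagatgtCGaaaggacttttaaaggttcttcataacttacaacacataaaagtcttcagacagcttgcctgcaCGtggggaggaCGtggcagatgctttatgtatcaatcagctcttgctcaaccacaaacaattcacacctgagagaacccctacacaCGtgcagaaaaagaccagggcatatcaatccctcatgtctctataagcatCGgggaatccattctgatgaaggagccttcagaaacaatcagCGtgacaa
Zfp759 (chr13:67127978-67128277, plus strand): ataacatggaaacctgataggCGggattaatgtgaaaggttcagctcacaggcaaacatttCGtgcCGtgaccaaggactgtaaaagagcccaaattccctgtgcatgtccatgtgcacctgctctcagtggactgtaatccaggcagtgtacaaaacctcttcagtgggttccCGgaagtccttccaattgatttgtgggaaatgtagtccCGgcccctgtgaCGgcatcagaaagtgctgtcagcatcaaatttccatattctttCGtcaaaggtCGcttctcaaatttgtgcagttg

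The promoters of the trio were near copies of each other. Zfp119a and Zfp959 were identical at 91.9% of aligned positions, Zfp119a and Zfp119b at 90.6%, and Zfp959 and Zfp119b at 94.1%. All other pairs among the 8 sequences lay between 39.6 and 50.6%. The trio held 14, 14 and 15 CG dinucleotides, against 16 in Zfp712, 9 in Zfp708 and 8 in Zfp759. Zfp868 held 6 and Zfp131 held 36. Thus Zfp712 without a region had more CG dinucleotides than each gene of the trio, and Zfp868 with one of the strongest regions had the fewest of the 8.

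The trio carried some of the strongest regions of the family. Zfp119a had a fold of 11.7 over 445 bp (chr17:55878573-55879017), the highest of the 59 members and the third highest among 6145 autosomal coding genes with a row at a start. Zfp959 had a fold of 8.71 over 414 bp (chr17:55892045-55892458) and Zfp119b a fold of 6.10 over 412 bp (chr17:55944935-55945346). All 3 encode KRAB zinc finger proteins with 9 fingers, and their regions began 87, 75 and 87 bp upstream of the start and ended 357, 338 and 324 bp downstream. Of the 50-mers in their start windows, 60.1%, 66.8% and 86.0% occurred once in the genome, and no filter on mapping quality was described. Whether reads from one copy were placed at another was not tested.

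No member of the chr13 cluster between 67.04 and 67.83 Mb had a region. It holds 23 genes from Zfp712 to Zfp273, all with a KRAB pattern, and the Wilson interval of 0 of 23 reached 14.3%. Its 7 other coding genes also had none, among them Rsl1, a KRAB zinc finger gene that represses sex-dependent genes in the liver. No cKO region of any kind lay in its 0.79 Mb. Chr13 as a whole had 1.85 regions per Mb, a rate by length that leaves out how densely genes lie here. Per gene, 27.2% of the other coding genes of chr13 were called, above the 14.3% limit. That limit counts the 23 related genes as independent. The cluster was also shown because none of its genes had a region, so the empty stretch partly restates that choice. Its start windows had a median of 95% single-copy 50-mers, and 16 of the 23 genes had at least 90%. Its promoters had a median of 8.5 CG dinucleotides over the 20 genes matched to RefSeq.

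Of the 203 members, 148 fell in 18 clusters of at least 3 genes, with gaps of at most 250 kb. In clusters 35 of 148 had a region at a start, or 23.6% (17.5 to 31.1%), and outside them 24 of 55, or 43.6% (31.4 to 56.7%). The former value lay below the 28.5% background, which its interval held. With rows of a -log10 q of at least 5 the shares were 14.2% and 16.4%, so the gap between them was smaller without the weaker rows. Both values were higher than the background of 9.20%, but no interval was computed for them, so neither was set apart from it. The clusters themselves spanned the whole range from none to all of their genes. The 5 clusters with no called member held 42 genes, and none of the 10 other coding genes inside them had a region.

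**Figure D2:**
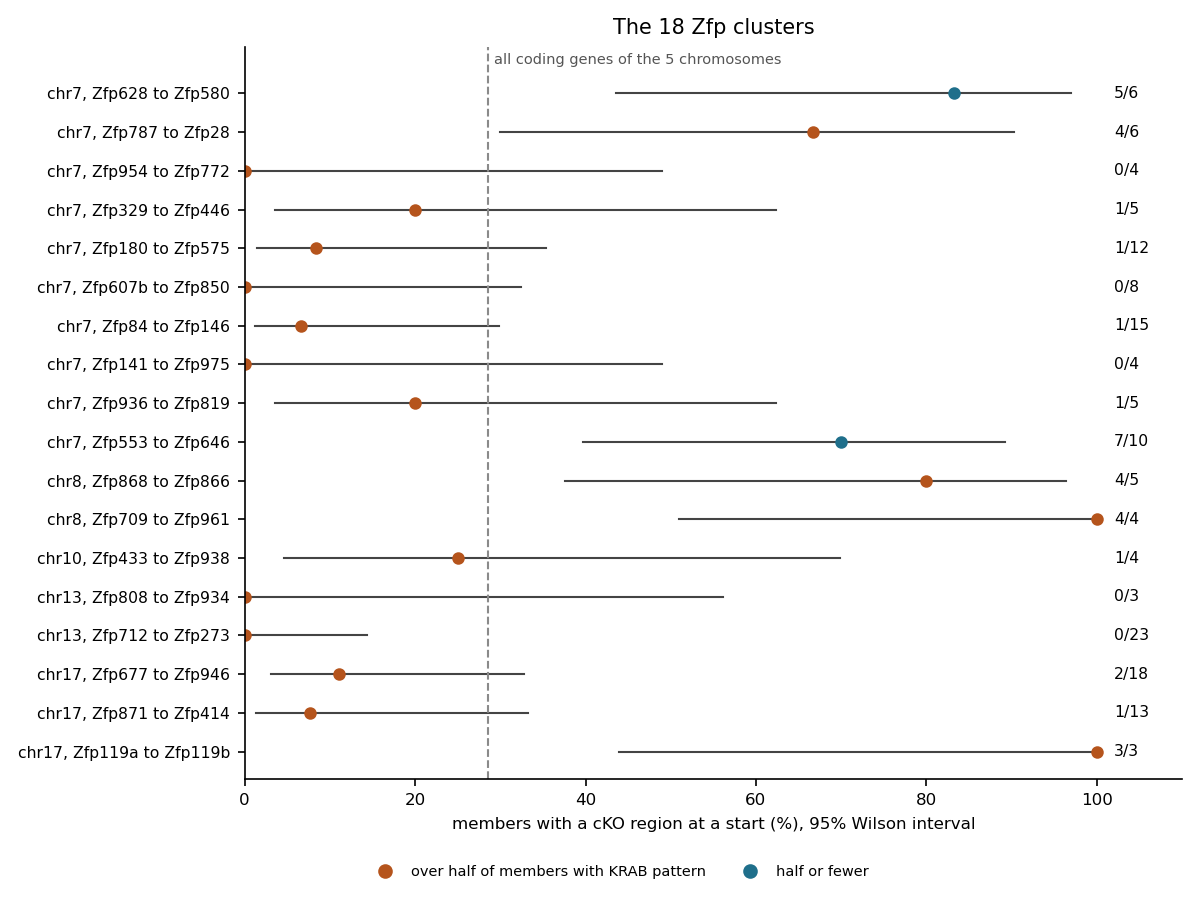
Share of members with a cKO region at a start (x axis, percent) in each of the 18 clusters, named by chromosome and first and last gene, with 95% Wilson intervals as bars and counts at the right. The dashed line is the 28.5% of all coding genes of the 5 chromosomes. The cluster from Zfp712 to Zfp273 lies at 0 with an interval that ends at 14.3%, and the small clusters have intervals that span much of the axis.

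On chr7 the clusters ranged from none of 8 genes to 5 of 6, against 21.7% of the other coding genes there and 28.5% of all coding genes of the 5 chromosomes. The cluster from Zfp84 to Zfp146 (29.77 to 30.17 Mb) had a region at 1 of 15 genes, and the gene was Zfp568, a KRAB protein that silences a placental promoter of Igf2, with a fold of 5.09. The cluster from Zfp180 to Zfp575 had a region at 1 of 12 (Zfp428, 4.26), the cluster from Zfp329 to Zfp446 at 1 of 5 (Zfp329, 3.77) and the cluster from Zfp936 to Zfp819 at 1 of 5 (Zfp715, 4.63). No gene of the cluster from Zfp607b to Zfp850 was called (0 of 8), and the same held for the clusters of Zfp954 and of Zfp141 with 4 genes each. The Wilson interval of each of these 7 clusters held both background shares, so none of them stood apart from the background by itself. The clusters with more regions lay at the proximal and distal ends of the chromosome. The cluster from Zfp628 to Zfp580 had a region at 5 of 6 genes, led by Zfp865 with a fold of 7.48, and none of its genes had a KRAB pattern. The next cluster, from Zfp787 to Zfp28, had 4 of 6, led by the KRAB gene Zfp667 with 8.17. The cluster from Zfp553 to Zfp646 (127.23 to 127.89 Mb) had 7 of 10, in a stretch where 14 of 25 other coding genes were called too. The intervals of these 3 clusters began at 43.6%, 30.0% and 39.7%, above both shares.

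Both clusters of chr8 had regions at most of their genes, with Wilson intervals that began at 37.6% and 51.0%, above the 28.5% background and the 36.4% of other coding genes there. All of their genes had a KRAB pattern. The cluster at 69.61 to 69.79 Mb had a region at 4 of 5 genes. Zfp868 led it with a fold of 10.1 over 397 bp (chr8:69625211-69625607), the 11th highest among the autosomal coding genes, and the other 3 had folds from 4.97 to 5.72. The cluster at 71.88 to 71.99 Mb had a region at 4 of 4 genes, all weaker, with folds from 2.91 to 4.43. In the chr10 cluster, Zfp873 was the 1 called gene of 4 (4.56 to 69.9%), with a fold of 5.23.

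Chr17 also holds a pair of larger clusters with few regions. The cluster from Zfp677 to Zfp946 (21.38 to 22.46 Mb) had a region at 2 of 18 genes, and these, Zfp942 and Zfp943, lie head to head and shared 1 region of 715 bp with a fold of 3.66. The share was 11.1% (3.10 to 32.8%). The cluster from Zfp871 to Zfp414 (32.77 to 33.63 Mb) had 1 of 13, and that gene, Zfp414 at its edge with a fold of 6.09, was its only member without a KRAB pattern. The share was 7.69% (1.37 to 33.3%). Both intervals held the 28.5% background and the 31.6% of other coding genes of chr17. These clusters held 0.932 and 1.15 cKO regions per Mb, against 3.35 for the whole chromosome.

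By chromosome, chr8 had the highest share and chr13 the lowest. On chr8 15 of 24 members had a region, or 62.5% (42.7 to 78.8%), against 36.4% (33.5 to 39.4%) of other coding genes there. On chr13 5 of 36 had one, or 13.9% (6.08 to 28.7%), against 27.2% (24.2 to 30.4%). The intervals of the members and the other genes did not overlap on chr8 and did on chr13. On chr8, 9 of the 24 members lie in the clusters described above, where 4 of 5 and 4 of 4 related genes were called. The interval counts these genes as independent. No share was computed for the chr8 members outside clusters. On chr7 27 of 92 members were called, or 29.3% (21 to 39.3%), on chr17 10 of 45, or 22.2% (12.5 to 36.3%), and on chr10 2 of 6, or 33.3% (9.68 to 70.0%). The other coding genes of these 3 chromosomes stood at 21.7%, 31.6% and 31.2%, each within the members' interval.

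A search of the translated coding sequences found a KRAB pattern in 145 members and none in 58, and no C2H2 finger in 6, which include Zfp36 and Zfp703. The KRAB members had a region at a start in 25 of 145 cases, or 17.2% (12 to 24.2%), which lies below the 28.5% background. The members without the pattern had one in 34 of 58 cases, or 58.6% (45.8 to 70.4%), above it. Inside clusters the shares were 16% of 125 (10.6 to 23.4%) against 65.2% of 23 (44.9 to 81.2%). Outside them they were 25% of 20 (11.2 to 46.9%) against 54.3% of 35 (38.2 to 69.5%), and these intervals overlapped. With rows of a -log10 q of at least 5 the shares were 8.97% and 29.3%, against 9.20% of all coding genes of the 5 chromosomes, so that the KRAB members then stood at the background and the others above it. The search pattern was widened after the calls were known, because the first version missed KRAB boxes of several clusters, and with the first version the shares were 18.5% and 45.6%.

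**Figure D3:**
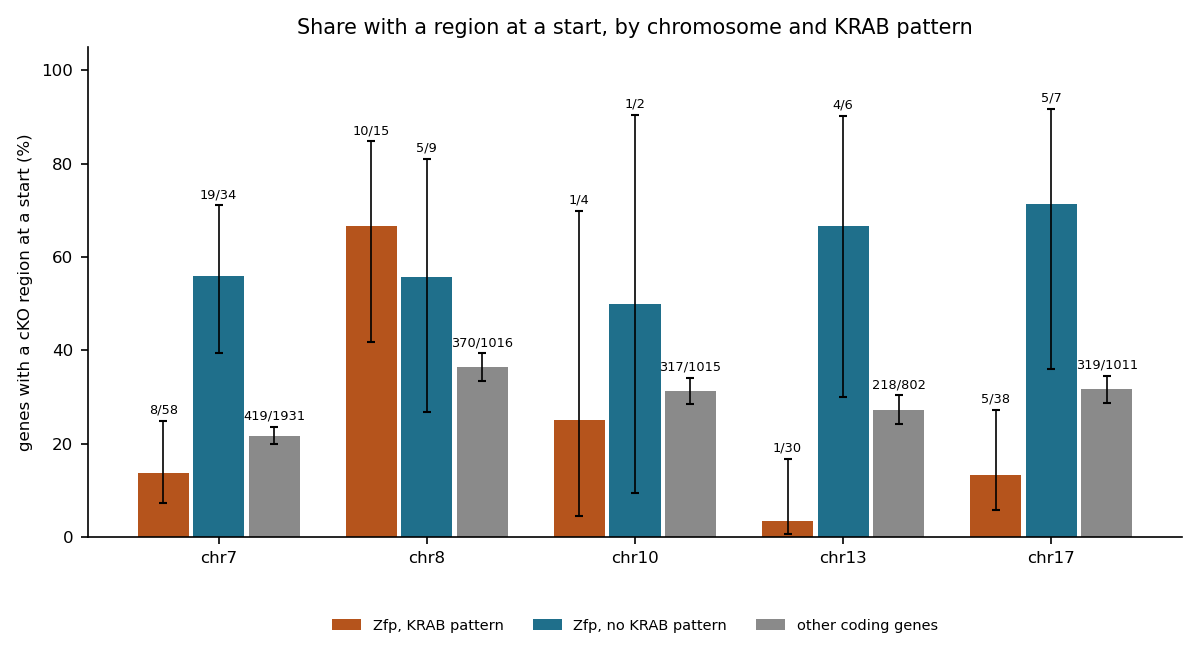
Share of genes with a cKO region at a start (y axis, percent) on each chromosome, for Zfp genes with a KRAB pattern, Zfp genes without it and other coding genes, with 95% Wilson intervals as bars and counts above. On chr7, chr13 and chr17 the KRAB genes stand lowest, at 13.8%, 3.33% and 13.2%, and on chr8 they reach 66.7%.

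Chr8 did not follow this split. There 10 of 15 KRAB members were called, or 66.7% (41.7 to 84.8%), beside 5 of 9 without the pattern. On the other 4 chromosomes together 15 of 130 KRAB members were called, or 11.5% (7.12 to 18.2%). With rows of a -log10 q of at least 5, 7 of these 130 were called. On chr13 the only called KRAB gene of 30 was Zfp184, which lies in no cluster and had a fold of 4.05.

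Called genes had more CG dinucleotides in the promoter than uncalled ones, in members and in other genes. Of the 203 members, 176 were matched to a RefSeq promoter. The called ones had a median of 21 CG dinucleotides (n = 51) and the uncalled ones 10 (n = 125), against 24 and 6 in other coding genes. With 0 to 4, 2 of 10 members had a region, or 20% (5.67 to 51.0%), against 2.34% (1.67 to 3.26%) of other genes, and with 5 to 9, 4 of 51, or 7.84% (3.09 to 18.5%), against 10.3% (8.05 to 13%). Of the 2 called members with 0 to 4, Zfp119b was placed there by its outermost start, with 0 CG dinucleotides. The promoter at its region held 15. With 10 members in this class, the members' shares in the 2 lowest classes cannot be ranked. With at least 20, 28 of 41 members had a region, or 68.3% (53.0 to 80.4%), beside 59.2% (56.8 to 61.6%) of other genes. With 10 to 19, the members with a KRAB pattern were at 15.3% (9 of 59, 8.24 to 26.5%), those without it at 53.3% (8 of 15, 30.1 to 75.2%) and other coding genes at 33.4% (30.5 to 36.5%). At this level the KRAB genes thus lay below other genes with intervals that did not overlap, and with at least 20 they stood at 62.5% (10 of 16, 38.6 to 81.5%), an interval that holds the other genes' value.

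**Figure D4:**
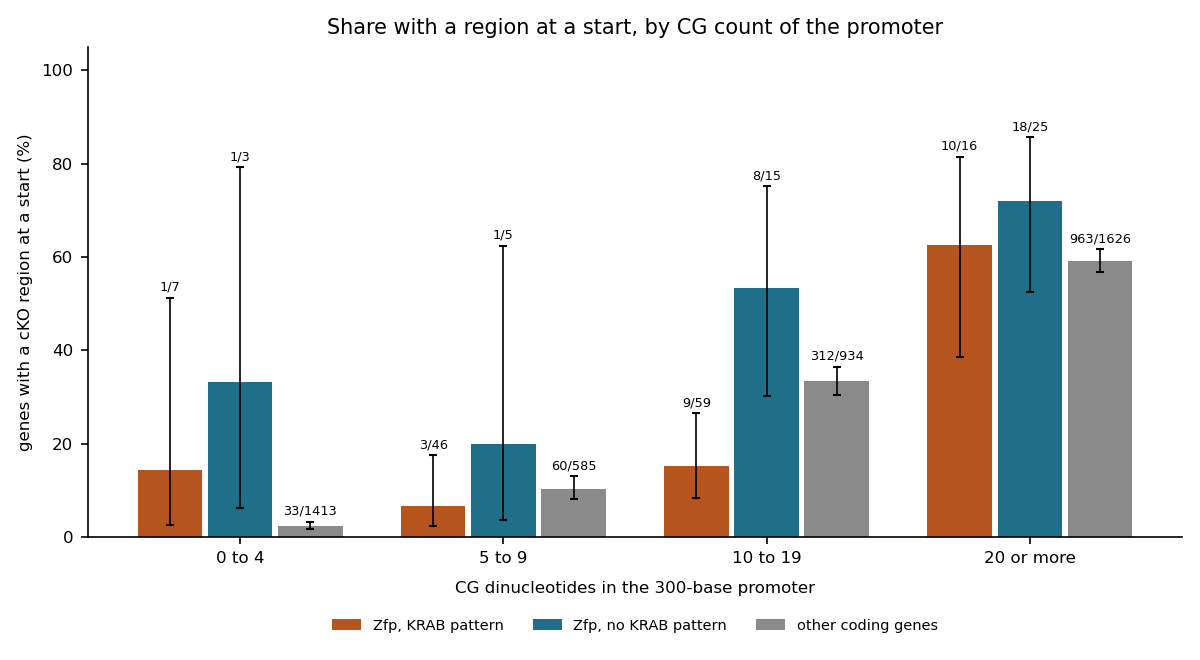
Share of genes with a cKO region at a start (y axis, percent) by the number of CG dinucleotides in the 300-base RefSeq promoter (x axis), for Zfp genes with a KRAB pattern, Zfp genes without it and other coding genes of the 5 chromosomes, with 95% Wilson intervals as bars and counts above. All 3 sets are highest with at least 20, and KRAB genes are the lowest of the 3 sets with 5 to 9 and with 10 to 19. The 1 called KRAB gene with 0 to 4 is Zfp119b, counted by its outermost start.

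Single clusters departed from the CG count in both directions. The chr7 cluster from Zfp607b to Zfp850 had a median of 17 and no region at any of 8 genes, while the chr8 cluster led by Zfp868 had a median of 11 and regions at 4 of 5. The former had a median of 81.8% single-copy 50-mers and the latter 93.1%. Over all members, 52 of 145 with at least 90% single-copy 50-mers had a region, or 35.9%, and 7 of 58 below that, or 12.1%. In 7 members, under 50% of the start window was single-copy, and none of them was called. How much of the uncalled share is due to reads that could not be placed was not tested.

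Promoter motifs were searched on both strands of the same 300 bases, with no check for overlap between motifs. The GC box GGGCGG was found in 58.8% of called members, 34.4% of uncalled members and 48.7% of 15974 autosomal coding promoters. The ETS core CCGGAA was found in 33.3%, 39.2% and 19.9%, and the NF-Y box CCAAT in 49%, 48.8% and 38.7%. Both of the latter were thus about as frequent in members with as without a region. The cAMP response element TGACGTCA was in 1.96% (1 of 51), 5.60% (7 of 125) and 2.49%. The YY1 motif AAGATGGCG was in 5.88% (3 of 51), 0% (0 of 125) and 2.02%, so both rest on few promoters. The median GC content of the promoters was 59.7% in called and 52.3% in uncalled members.

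The regions of the 59 members were narrow and close to the start. Their median fold was 4.63 (2.91 to 11.7) and their median width 387 bp (205 to 1280 bp), beside 4.09 and 444 bp in other coding genes with a row. The centre lay a median of 101 bp downstream of the start, against 31 bp in other genes. The region covered the start in 47 members, lay wholly downstream in 10 and wholly upstream in 2, Zfp667 and Zfp703. KRAB members and the rest had like folds, with medians of 4.63 and 4.62, and their widths were 378 and 406 bp.

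**Figure D5:**
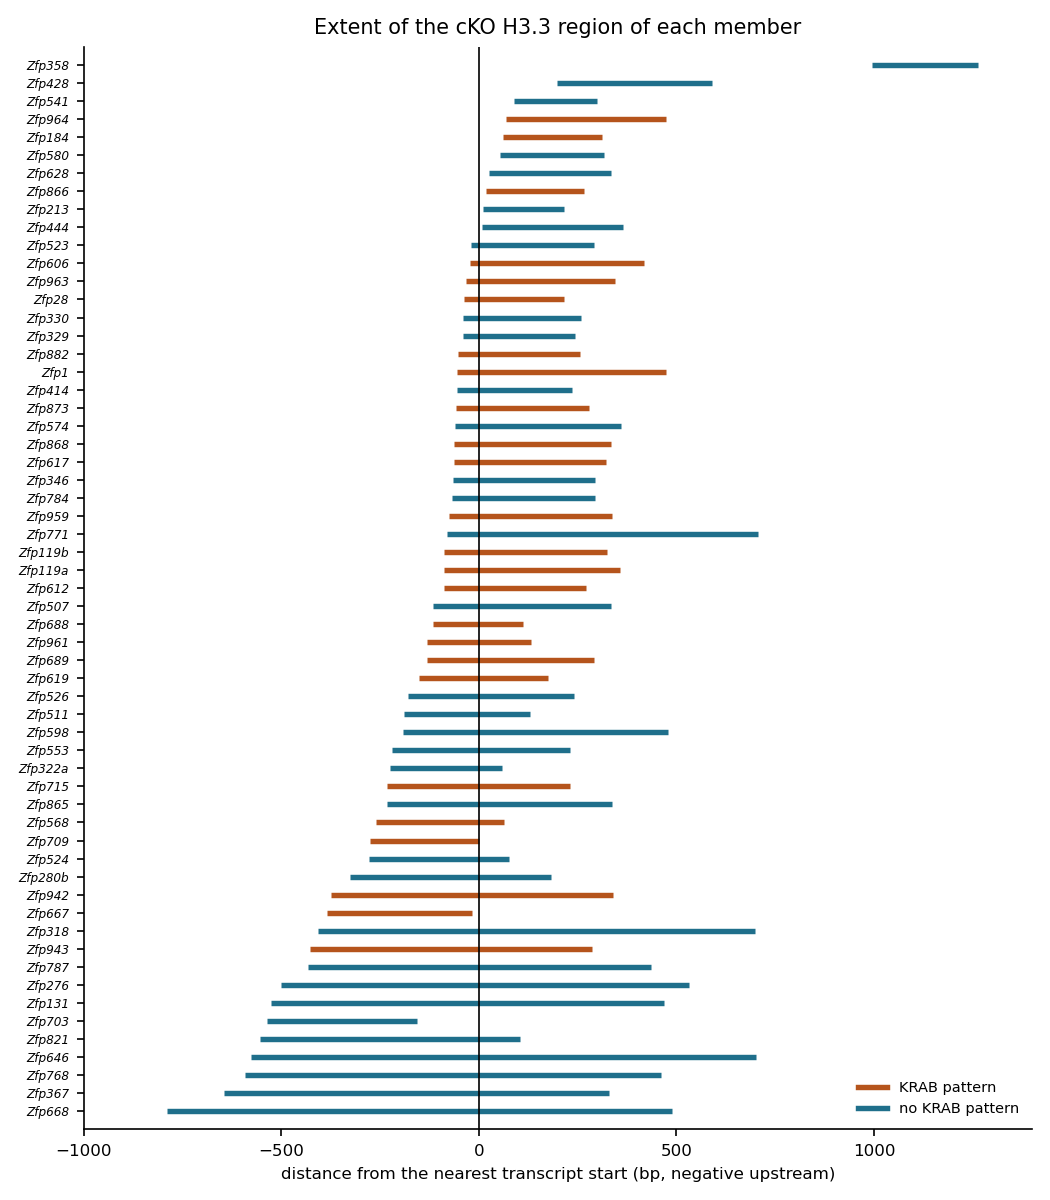
Extent of the cKO region of each of the 59 called members relative to its nearest transcript start (x axis, bp, negative upstream), sorted by the upstream edge, with colour for the KRAB pattern. Most bars cross the start and end within 500 bp downstream, and Zfp358 alone begins near the end of the 1 kb window, at 996 bp.

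After Zfp119a, Zfp868 and Zfp959, the highest folds were at Zfp667 with 8.17, Zfp131 with 8.09, Zfp865 and Zfp1 with 7.48, and Zfp574 with 6.87. Zfp131, a BTB zinc finger gene, had a region of 997 bp that covered its whole 300-base promoter. Zfp668 and Zfp646 lie head to head and shared the widest region, 1280 bp with a fold of 6.72 (chr7:127875644-127876923). The next widest were at Zfp318 with 1106 bp and at Zfp768 with 1054 bp. The lowest fold, 2.91 with a -log10 q of 2.11, occurred at Zfp553, Zfp358, Zfp709 and Zfp580, followed by 3.16 at Zfp213 and Zfp526.

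In 12 of the 59 members the region also lay within 1 kb of the start of another coding gene, in 9 of them on the opposite strand. A further 6 had only a non-coding start there, and 41 had no other. Without the 12 shared regions 47 members were called. Among the 144 uncalled members the nearest cKO region was a median of 219 kb away, and 102 had none within 100 kb. The window decided little, since the nearest uncalled member, Zfp296, lay 3888 bp from a region and Zfp358, at 996 bp, was the called member closest to the limit.

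Regions inside the genes were rare. A cKO row inside the gene and over 1 kb from its starts was found in 4 of 203 members, or 1.97% (0.769 to 4.96%), against a background of 2.43%. On the last exon, where most fingers of a KRAB gene are encoded, 3 of 203 had a row, or 1.48% (0.504 to 4.25%), against 1.00%. The 4 genes were Zfp865 (3.06), Zfp574 (3.36, last exon), Zfp771 (3.32, last exon) and Zfp358 (2.91, last exon), with the fold in parentheses. None of them had a KRAB pattern, and no row remained at a -log10 q of at least 3. The Zfp358 region is the one already counted at its start, because 1 of its rows reached into the 1 kb window. No member had a WT row inside the gene, with a background of 0%.

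Among members known for roles outside the KRAB family, Zfp703, a co-repressor of the NET family, had a region of 380 bp with a fold of 4.09 centred 346 bp upstream of its start. No region was found at Zfp36, which encodes the mRNA decay factor tristetraprolin, at Zfp42, which encodes the stem cell marker REX1, or at Zfp143, an activator that binds many promoters. The neural regulators Zfp536 and Zfp423 also had none, with the nearest regions 333 and 159 kb away. Of the genes known for imprinting, Zfp57, which protects imprinted methylation, had no region within 41.6 kb, and Zfp568 had the region described above. A further 3 genes were chosen after their values were seen. Zfp541, a factor for the exit from meiotic prophase, had a fold of 3.29, Zfp598, the ubiquitin ligase for collided ribosomes, had 4.42, and Zfp346, a binder of double-stranded RNA, had 4.82.

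The partners of KRAB zinc finger proteins were mostly called. Of 15 listed genes, 11 had a cKO region at a start, or 73.3% (48.0 to 89.1%), beside 29.5% of all autosomal coding genes. The list was picked by hand. Other coding genes of the 5 chromosomes with at least 20 CG dinucleotides stood at 59.2%, within that interval. Whether the partners differ from genes with like promoters was not tested. None had a WT row at a start, in a list with 4 autosomal rows in all. Trim28, the co-repressor that KRAB domains bind, had a fold of 5.54 over 1140 bp. The heterochromatin protein genes Cbx1 and Cbx3 had 6.12 and 5.22, and Cbx5 had no region. The deacetylase and remodeler genes Hdac1, Chd3, Chd4 and Smarcad1 had folds of 5.87, 4.30, 5.50 and 4.41. Dnmt1 and Uhrf1, which maintain DNA methylation, had 4.92 and 5.41, and Morc3 had 4.85. Of the H3.3 chaperone pair, Daxx had 5.81 and Atrx, on the X chromosome, had none. Setdb1 and its cofactor Atf7ip had none.

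Across the genome, the 180 Zfp genes of the other autosomes had a cKO region at a start in 67 cases, or 37.2% (30.5 to 44.5%), an interval above the 29.5% of all autosomal coding genes. It overlapped the interval of the 203 members, whose own value of 29.1% stood at the background.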

How the data were processed

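Lists of H3.3 CUT&RUN peaks in pachytene spermatocytes were analysed, from 2 Arid1a WT and 3 Arid1a cKO libraries. The authors trimmed the reads, mapped them with bowtie2 (mm10), discarded PCR duplicates and ran MACS2 in its broad mode at a q threshold of 0.05 against a rabbit IgG library from juvenile testes of an earlier study. They then intersected the replicates' peaks with bedtools. Each row of a deposited list holds a score, a fold enrichment (ratio of H3.3 to IgG pileup), a -log10 p and a -log10 q. In all 57 regions at members' starts the rows carried 1 peak name and 1 fold, so the fold describes 1 peak call and not a mean, and may come from a single library that the sources used here do not name. The -log10 p columns, 2 in all, were not used. Library depth is not given in the sources used here.

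Groups came from the sample descriptions. Rows overlapping by at least 1 bp were merged into regions, and coordinates are 1-based. A gene was called at a start if a row overlapped 1 kb either side of any GENCODE M21 transcript start, and inside if a row overlapped the gene outside those windows. The highest fold was used. KRAB patterns and C2H2 fingers were searched in translated coding sequences, and CG counts were taken from RefSeq promoters (GRCm38.p6), with the entry nearest the outermost start. Single-copy 50-mers were counted on 21 chromosomes and both strands. No test was run. On simulated lists 200 of 200 planted genes were recovered. Named genes were members with WT rows or rows inside, the 10 highest and 5 lowest folds, the 3 widest regions, the leader of each cluster of at least 5 genes, and listed known genes and partners. Zfp932 and Zfp809, also listed, were not members. Members and lists were chosen with earlier results of these data known, and the KRAB pattern, CG classes, the 90% limit on 50-mers and the printed promoters were set after the calls had been seen. Alternatives covered the window, the overlap rule, transcripts, -log10 q, support by rows, mappability and cluster gaps. Software was Python 3.11.15, pandas 2.3.3, numpy 2.4.6, scipy 1.17.1, numba 0.67.0, biopython 1.88 and matplotlib 3.10.9.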

Additional observations from a re-analysis of the deposited data

How the results depend on the processing

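Of 133 alternatives over 16 results, 119 moved a value by less than its interval or a count by less than 1.5 times. With rows of a -log10 q of at least 5, the count of members with a cKO row at a start was 30 of 203 (14.8%, against 9.20% of all coding genes of the 5 chromosomes). The share was then 16.3% on chr7, 29.2% on chr8, 5.56% on chr13 and 11.1% on chr17, 14.2% in clusters and 16.4% outside. Relative to the background of the same setting, the family thus went from 29.1% against 28.5% to above it. Its interval left that background out but counted each gene as independent. The share in clusters went from a value below the background (23.6%) to a value above it. The interval of the 23.6% held the background, and none was computed for the later value. At that setting 9 of 18 clusters had no called member. With a -log10 q of at least 3, the share outside clusters was 30.9% and the count of members with a row inside the gene was 0. With a cluster gap of 100 kb, 9 of 18 clusters had no called member. Windows of 500 bp and 2 kb gave 58 and 59 members at a start. The stricter q settings leave fewer rows and the smaller gap splits clusters by construction, and no other cause was tested. No paired analysis was possible because each deposited list is 1 intersection of its replicates, and for the same reason no library could be left out. The unknown depth, the single IgG library and the different number of libraries per genotype limit any comparison of the lists, and genes without a called region may still carry H3.3 below the threshold of the peak caller.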
